A study of Homo sapiens with 8 samples.

Results

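The genes described here are 42 members of the machinery that repairs DNA double-strand breaks and crosslinks: factors of homologous recombination, of the Fanconi anemia pathway, and of the ATM/ATR checkpoint. They were listed by gene name, with earlier results of these data known, and each was found by its Ensembl identifier in a table of 60230 genes. All 42 passed the filter on low counts, which 13404 genes passed in all. The question asked was how their mRNA levels stood in liver cells exposed to plastic-related antioxidants, and they are described by pathway arm.

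HepG2 is an established human liver tumor line, and the cells used here overexpress cytochrome P450 3A4 (CYP3A4), a drug-metabolizing enzyme. All 4 groups share this overexpression, and whether the line is a single clone is not given in the sources used here. The cells were exposed for 24 h to compound 4, 5, or 6, each at its own IC50 (the concentration that inhibits viability to the midpoint of its range), or to 0.2% DMSO as control, with 2 replicates per group and 8 samples in all. Compounds 4 and 6 are methylene-bridged methylphenol antioxidants that carry tert-butyl groups in compound 4 and cyclohexyl groups in compound 6, while compound 5 joins a pair of di-tert-butylphenol rings through an ethane bridge. Molar doses were thus not matched between compounds. The labels mark the replicates as day 1 and day 2, which are used here as replicate numbers. The names of replicate 1 of compounds 4 and 5 say that each was merged, and the other names do not. Whether the days were separate runs or the replicates separate cultures is not stated, so that the p-values measure the spread between these samples, which may be technical.

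The samples held between 9472261 and 13308975 counts. The liver markers ALB (12560 to 18490 CPM) and HNF4A (320 to 406 CPM) were detected in every sample, while the leukocyte markers PTPRC and CD3E, the basal epithelial keratin KRT5, and the neurofilament NEFL were listed at 0 in all of them. All 13 liver markers were detected, and 4, 3, and 2 of them were called lower and 2, 0, and 0 higher with compounds 4, 5, and 6. The shares called lower were 30.8%, 23.1%, and 15.4%, against 5.42%, 14.2%, and 1.6% of all tested genes, and the compound 6 count was 0 under the replicate block and 4 in DESeq2. Of 11 markers of other cell types 3 passed the filter, and their list summed to 2058 to 3198 CPM, mostly from LYZ (1854 to 2993 CPM). LYZ was called lower with compound 5 (-0.47, edgeR adjusted p = 0.0315), EPCAM was called with no compound, and the mesenchymal marker PDGFRB, at 1.64 to 2.66 CPM in DMSO, was called higher with compound 4 (log2 fold change 1.80, edgeR adjusted p = 0.00864). The part of these markers in the results was not tested. CPM is the level of a gene relative to the total counts of its library, as edgeR computes it after TMM normalization. The least abundant of the 42 genes in any sample still had 22 counts. In RNA from whole cultures, fewer cells of a cell cycle stage and less RNA per cell cannot be told apart.

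Homologous recombination restores a broken chromosome from an intact copy. Nucleases first resect the broken ends, BRCA1, PALB2, and BRCA2 then prepare the exposed strand for exchange, further cofactors and translocases assist strand exchange, and helicases dissolve the joined intermediates. The Fanconi anemia pathway handles crosslinked DNA: a core complex with the enzyme UBE2T attaches ubiquitin to FANCD2 and FANCI, which then recruit nucleases. The kinases ATM and ATR sense breaks and stalled replication forks and activate CHEK2 and CHEK1, which hold the cell cycle. Many of these genes are transcribed mainly while cells prepare for or undergo DNA replication, under E2F and related factors.

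Promoter sequences were looked up because all called genes moved in the same direction. Stretches of 120 bases just upstream of the annotated exons are shown for 4 genes that were called lower with at least 1 compound and carry a searched motif, and for ATR, which was not called and carries none. They come from RefSeq on GRCh38.p14 and read 5′ to 3′ on the strand of the gene. Capitals mark the letters of the CCAAT box (CCAAT, or ATTGG on the other strand), the E2F core (GCGGGAA, or TTCCCGC), and the cell cycle homology region or CHR (TTTGAA, or TTCAAA).

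RAD54L, chr1:46247568-46247687, plus strand: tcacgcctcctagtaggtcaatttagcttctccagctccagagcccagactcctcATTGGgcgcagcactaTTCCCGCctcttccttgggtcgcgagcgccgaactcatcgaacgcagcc
BRIP1, chr17:61863529-61863648, minus strand: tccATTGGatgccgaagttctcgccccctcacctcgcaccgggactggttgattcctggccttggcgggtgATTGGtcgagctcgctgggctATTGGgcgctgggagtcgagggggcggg
CLSPN, chr1:35769979-35770098, minus strand: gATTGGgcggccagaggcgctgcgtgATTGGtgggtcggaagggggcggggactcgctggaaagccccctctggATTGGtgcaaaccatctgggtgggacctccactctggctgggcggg
UBE2T, chr1:202341981-202342100, minus strand: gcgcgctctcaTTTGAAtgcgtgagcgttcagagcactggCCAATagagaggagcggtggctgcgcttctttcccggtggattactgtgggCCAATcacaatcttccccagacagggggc
ATR, chr3:142578827-142578946, minus strand: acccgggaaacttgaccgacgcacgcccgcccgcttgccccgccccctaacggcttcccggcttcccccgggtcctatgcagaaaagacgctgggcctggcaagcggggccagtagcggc

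The RAD54L stretch held an E2F core and a CCAAT box on the other strand, BRIP1 and CLSPN each held the CCAAT box 3 times, and UBE2T held a CHR and the CCAAT box 2 times. RefSeq gave a promoter for 38 of the 42 genes. Within 250 bases upstream of a start, on both strands, 9 of these 38 (23.7%) held the E2F core, against 11% of the 10021 tested genes with an entry. The CCAAT box occurred in 20 of 38 (52.6%, against 42%), the longer E2F motif TTTNGCGC in 2 (5.26%, against 3.04%), and the CHR in 4 (10.5%, against 11.9%). The longer E2F motif and the E2F core could overlap only in part, and each was counted separately. Of the 20 genes with an entry that were called lower with at least 1 compound, 14 held any of the 4 motifs and 6 (BARD1, BRCA2, EXO1, FANCD2, RAD51C, and XRCC2) held none, while of the 18 that were not called 10 held one and 8 none. By motif, the CCAAT box occurred in 14 of the 20 called and 6 of the 18 uncalled genes, and the E2F core in 5 and 4. The CHR occurred in 2 and 2 of them and the longer E2F motif in 1 and 1. These splits were not tested. ATM, for example, was not called and held a CHR and a CCAAT box. A match describes the letters of these windows and not binding of a factor.

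With compound 4, 16 of the 42 genes were called lower at an adjusted p under 0.05, where 5.42% of all tested genes were, and 0 were called higher, where 6.5% of all genes were. Compound 5 lowered 18 (background 14.2%) and raised 0 (13.9%), and compound 6 lowered 6 (1.6%) and raised 0 (2.8%). The tool was edgeR's quasi-likelihood test with Benjamini-Hochberg adjustment over the 13404 genes. DESeq2 called 16, 16, and 7 lower and 0 higher. At an unadjusted p under 0.05 in edgeR, 25, 29, and 20 of the genes were lower with compounds 4, 5, and 6, and 0 were higher with any of them. Of all 13404 tested genes, 1773, 2884, and 1273 were lower and 1846, 2678, and 1407 higher at that cutoff. Unadjusted counts against DMSO given below for arms and other lists stand against these. The 3 comparisons share their DMSO samples and are given side by side.

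Relative to DMSO, the 42 genes had a median log2 fold change of -0.49 ± 0.10 under compound 4, against -0.43 ± 0.10 under 5 and -0.37 ± 0.30 under 6 (SD from the replicates of both groups, n = 2 each). Over all tested genes the medians were 0.00, -0.03, and 0.00. Below DMSO lay 6697, 7105, and 6642 of all 13404 tested genes, and 38, 40, and 34 of the 42 genes. The fitted values ran from -1.08 to 0.15 with compound 4, from -1.37 to 0.41 with compound 5, and from -0.83 to 0.31 with compound 6. Changes of single genes in what follows are log2 fold changes of fitted levels. The lowest values belonged to RAD51AP1 with compounds 4 and 6 and to RMI2 with compound 5.

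**Figure D1:**
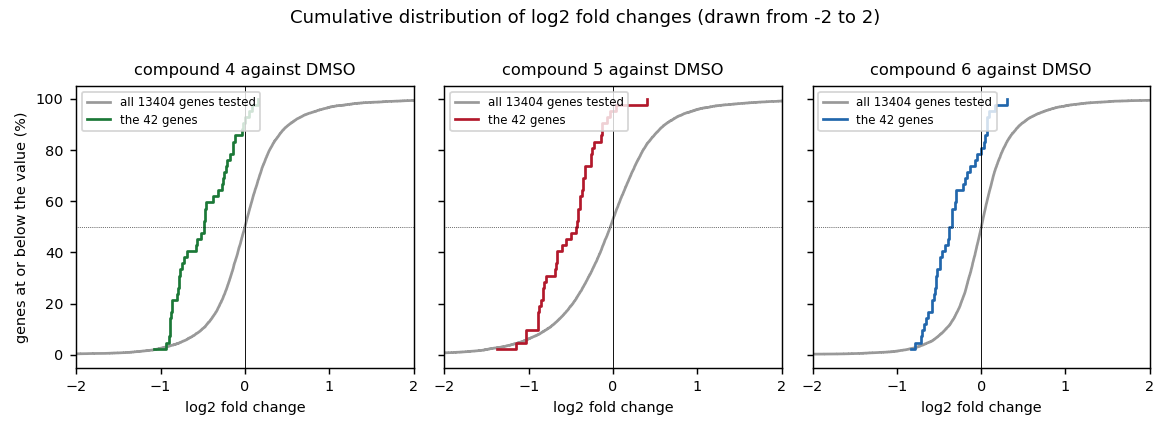
Cumulative distributions of log2 fold changes against DMSO (x axis, drawn from -2 to 2) for the 42 genes (coloured) and all 13404 tested genes (grey), with the percentage of genes at or below each value on the y axis. The coloured curves cross 50% at -0.49, -0.43, and -0.37 for compounds 4, 5, and 6, while the grey curves cross it near 0.

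Over the 42 genes the replicates of compound 6 lay further apart than those of the other groups. Over all genes, however, the counts of the compound 4 replicates differed most. The chi-square per degree of freedom was 17.2 for compound 4, 9.07 for compound 6, 6.47 for compound 5, and 5.51 for DMSO. Relative to the DMSO mean, the median of the 42 genes was -0.19 in compound 6 replicate 1 and -0.59 in replicate 2, whereas the replicates stood at -0.51 and -0.55 with compound 4 and at -0.51 and -0.44 with compound 5. The DMSO replicates stood at -0.07 and 0.07. Without compound 6 replicate 2 the fitted median for compound 6 was -0.19, and without replicate 1 it was -0.57.

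**Figure D2:**
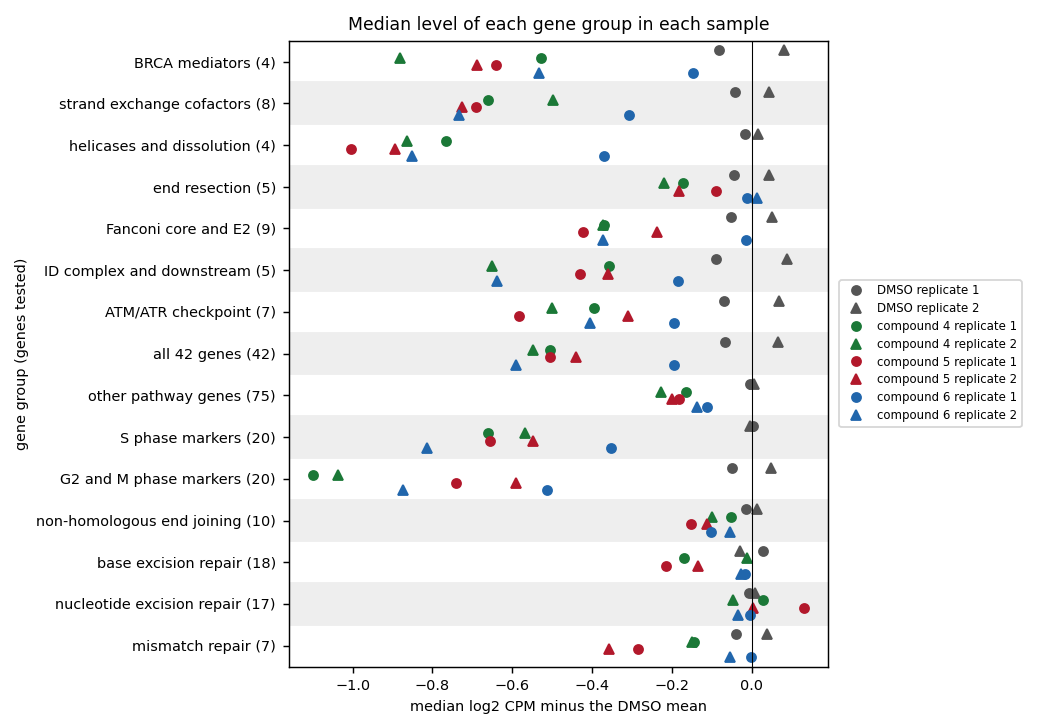
Median log2 CPM of each gene group minus the mean of the DMSO samples (x axis), for every sample, with circles for replicate 1 and triangles for replicate 2. The compound 6 replicates lie at -0.19 and -0.59 over all 42 genes, replicates of compounds 4 and 5 are also apart in some arms (-0.53 and -0.88 for compound 4 in the BRCA mediators), and the S phase and G2 and M phase markers lie lower than the 42 genes in each treated sample.

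The calls moved when single libraries were left out. The group that then has 1 sample adds nothing to the estimated spread, which comes from the other groups, and its sample is assumed to vary like theirs. Without DMSO replicate 2, the count for compound 4 dropped from 16 to 1, with CHEK1 still called, and without DMSO replicate 1 or compound 4 replicate 2 it was 7 and 10. For compound 5 it dropped from 18 to 10 without DMSO replicate 2 and to 9 without compound 5 replicate 1. For compound 6 it was 0 without either DMSO replicate, without compound 5 replicate 1, or without compound 6 replicate 2, 1 without compound 5 replicate 2, 11 and 10 without compound 4 replicates 1 and 2, and 12 without compound 6 replicate 1. With compound 5, BRCA1, BARD1, RAD51C, XRCC3, RAD51AP1, BRIP1, RMI2, UBE2T, and CHEK1 were called in all 8 fits that left out a library, and CHEK1 was with compound 4.

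**Figure D3:**
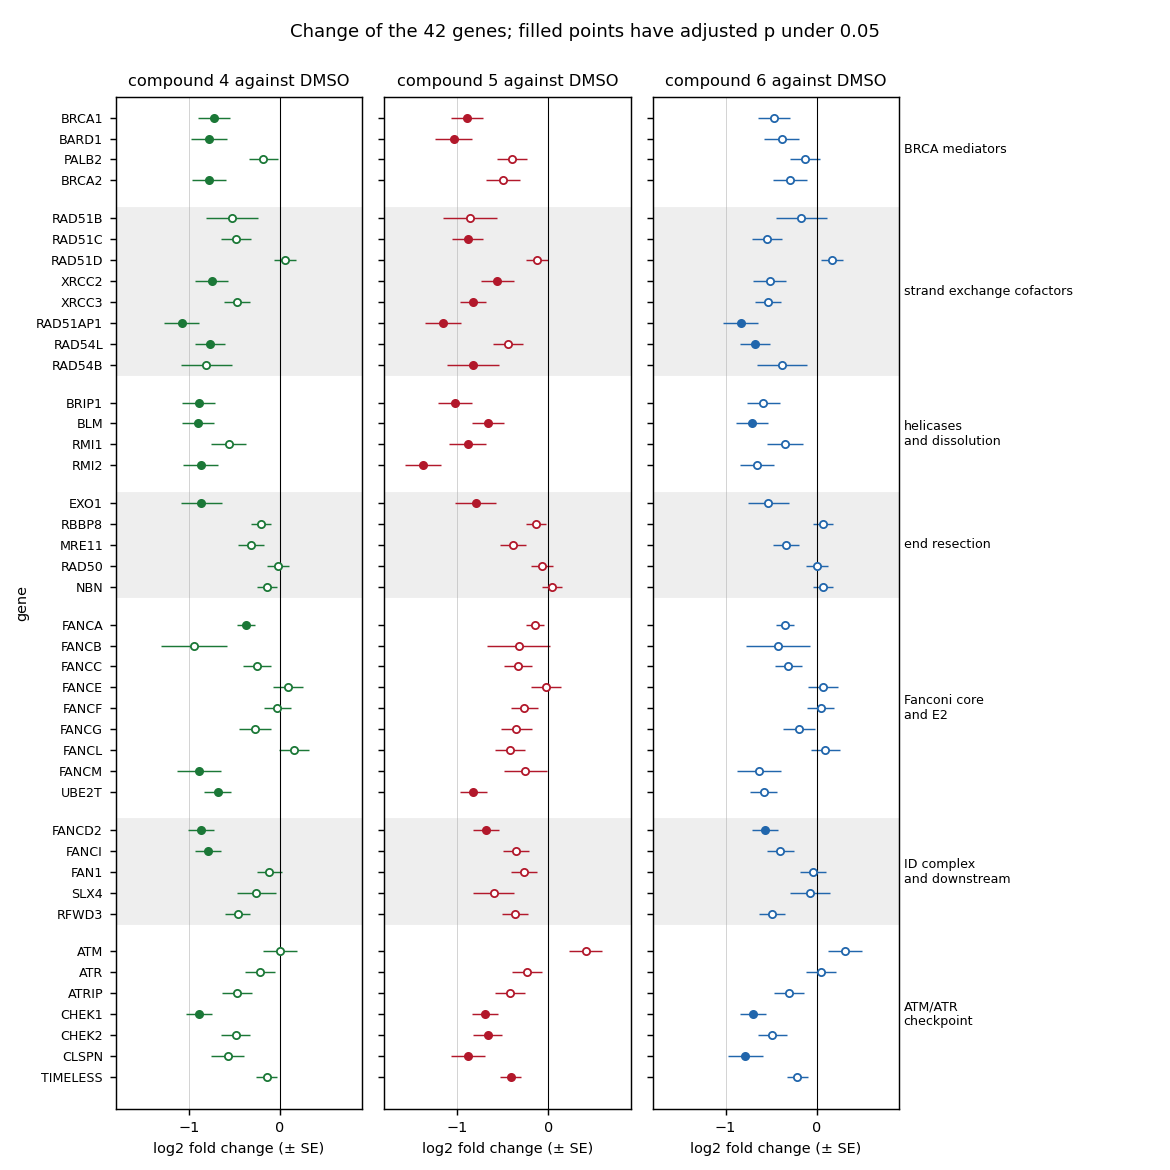
Log2 fold change (x axis, ± SE) of each of the 42 genes against DMSO for compounds 4, 5, and 6, ordered by pathway arm, with filled points for an edgeR adjusted p under 0.05. All filled points lie below 0, and the helicase and dissolution genes are among the lowest while RAD50, NBN, and RBBP8 lie close to 0.

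The BRCA mediators act on resected DNA, and 3 of the 4 fell with compound 4 (75%, against 5.42% of all tested genes) and 2 with compound 5 (50%, against 14.2%). With compound 6, edgeR called 0 of them, with 1 at an unadjusted p under 0.05, 1 called without the filter, and 0 called by DESeq2. The medians of the arm were -0.75, -0.70, and -0.34 on the log2 scale. BRCA1 (ENSG00000012048, chromosome 17, 43044295 to 43170245, minus strand, GRCh38) encodes the ubiquitin ligase that starts this step. It measured 60.4 and 68.4 CPM in the DMSO replicates, 45.6 and 32.7 under compound 4, 35.2 and 34.1 under compound 5, and 53.5 and 39.9 under compound 6. Every treated sample lay below both DMSO samples. The log2 fold change was -0.72 (SE 0.17, edgeR adjusted p = 0.0225) with compound 4, -0.90 (SE 0.18, edgeR adjusted p = 0.00427) with compound 5, and -0.47 (SE 0.17, edgeR adjusted p = 0.159) with compound 6.

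BARD1, the partner of BRCA1 in that ligase, measured 11.0 and 12.3 CPM in controls, against 6.93 and 6.63 for compound 4, 4.77 and 6.52 for compound 5, and 10.0 and 7.91 for compound 6. Its groups did not overlap with DMSO for any compound, and it fell by 0.78 with compound 4 (edgeR adjusted p = 0.0281, a call not made by DESeq2, which called 2 of the 4 mediators) and by 1.04 with compound 5 (edgeR adjusted p = 0.00428), while compound 6 gave -0.39 (edgeR adjusted p = 0.304). BRCA2, which acts downstream of BRCA1 in this step, measured 19.1 and 20.5 CPM in the DMSO replicates, 13.3 and 9.83 under compound 4, 14.8 and 13.4 under compound 5, and 18.7 and 13.8 under compound 6. It fell by 0.78 with compound 4 (edgeR adjusted p = 0.0233), and the change of -0.50 with compound 5 passed the cutoff once the fit included a replicate block (edgeR adjusted p = 0.0686 without and 0.0489 with it). PALB2, which bridges BRCA1 and BRCA2, was not called, with log2 fold changes between -0.40 and -0.13. The calls of BRCA1, BARD1, and BRCA2 with compound 4 were each lost without DMSO replicate 1, without DMSO replicate 2, and without compound 4 replicate 2. Over the fits that left out a library, the compound 4 values ran from -0.98 to -0.48 for BRCA1. They ran from -0.85 to -0.70 for BARD1 and from -1.01 to -0.55 for BRCA2.

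Among the 8 strand exchange cofactors, 3 fell with compound 4, 5 with compound 5, and 2 with compound 6, with medians of -0.64, -0.83, and -0.53. These were 37.5%, 62.5%, and 25%, against 5.42%, 14.2%, and 1.6% of all tested genes. The counts were 6, 6, and 4 without the filter on low counts and 3, 3, and 2 in DESeq2, which did not call XRCC2 and RAD54B with compound 5. RAD51AP1 (ENSG00000111247, chromosome 12, 4538798 to 4560048, plus strand), whose product stimulates strand invasion, was the member with the lowest p in this arm. It measured 21.8 and 21.0 CPM in controls, against 9.58 and 10.6 for compound 4, 10.5 and 8.71 for compound 5, and 14.6 and 9.55 for compound 6. All treated samples lay below DMSO, and compound 6 replicate 1 was the highest of them. It fell by 1.08 with compound 4 (SE 0.19, edgeR adjusted p = 0.00607), by 1.15 with compound 5 (SE 0.20, edgeR adjusted p = 0.00208), and by 0.83 with compound 6 (SE 0.19, edgeR adjusted p = 0.0382).

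XRCC3 and RAD51C encode partners in a complex that acts late in recombination. XRCC3 measured 28.8 and 29.7 CPM in the DMSO replicates, 20.4 and 21.8 under compound 4, 17.1 and 15.9 under compound 5, and 22.5 and 17.9 under compound 6. RAD51C measured 25.7 and 22.9 CPM in controls, against 16.1 and 18.5 for compound 4, 14.3 and 12.0 for compound 5, and 18.9 and 14.6 for compound 6. In both genes all treated samples lay below DMSO, and the calls were with compound 5. XRCC3 fell by 0.83 (SE 0.14, edgeR adjusted p = 0.00226) and RAD51C by 0.88 (SE 0.17, edgeR adjusted p = 0.00361). With compounds 4 and 6 the adjusted p was 0.0518 and 0.0586 for XRCC3 and 0.0786 and 0.0903 for RAD51C, at log2 fold changes between -0.54 and -0.47.

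XRCC2, another such cofactor, was called with compounds 4 and 5 (log2 fold changes -0.75 and -0.56). RAD54L, the translocase whose promoter is printed above, fell by 0.77 with compound 4 (edgeR adjusted p = 0.0132) and by 0.68 with compound 6 (edgeR adjusted p = 0.0458). With compound 5, RAD54L stood at -0.44 (edgeR adjusted p = 0.0628, or 0.0451 in the blocked fit). RAD54B, its relative, was called with compound 5 (-0.83, edgeR adjusted p = 0.0491), a call lost under the block (0.0639). It shares 57.6% of its 31-mers with the overlapping gene FSBP, so that its reads could be assigned either way. RAD51B was the least abundant per length of all 42 genes, with 0.487 CPM per kb of exon in DMSO, and was not called (-0.52, -0.86, and -0.17, the compound 5 value with an edgeR adjusted p of 0.0504). RAD51D was not called either, with log2 fold changes of 0.05, -0.13, and 0.17.

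The helicases and dissolution factors comprise the helicase BRIP1 and BLM, RMI1, and RMI2, whose complex separates joined DNA molecules after strand exchange. This arm had the lowest medians, at -0.88, -0.96, and -0.62. Of the 4 genes, 3 fell with compound 4, 4 with compound 5, and 1 with compound 6 (75%, 100%, and 25%, against 5.42%, 14.2%, and 1.6% of all tested genes). With compound 6 the count was 3 without the filter and 0 under the replicate block, and DESeq2 called RMI2 in place of BLM. RMI2 (ENSG00000175643, chromosome 16, 11249619 to 11381662, plus strand), a subunit of the BLM dissolution complex, measured 43.2 and 40.3 CPM in the DMSO replicates, 21.0 and 24.7 under compound 4, 13.8 and 18.4 under compound 5, and 31.7 and 21.6 under compound 6. The compound 5 samples lay below all others. RMI2 fell by 1.37 with compound 5 (SE 0.20, edgeR adjusted p = 8.32e-04), to 0.386 of the DMSO level, and by 0.87 with compound 4 (SE 0.19, edgeR adjusted p = 0.0149), while compound 6 gave -0.65 (SE 0.19, edgeR adjusted p = 0.0782).

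BRIP1, a helicase that binds BRCA1, measured 30.8 and 34.6 CPM in controls, against 19.3 and 16.0 for compound 4, 14.3 and 17.7 for compound 5, and 25.7 and 18.2 for compound 6. It fell by 0.89 with compound 4 (edgeR adjusted p = 0.0113) and by 1.03 with compound 5 (edgeR adjusted p = 0.00285), and gave -0.59 with compound 6 (edgeR adjusted p = 0.0968). BLM, the helicase mutated in Bloom syndrome, measured 18.7 and 23.8 CPM in the DMSO replicates, 12.2 and 10.7 under compound 4, 14.2 and 12.7 under compound 5, and 14.6 and 11.5 under compound 6. All 6 treated samples lay below both DMSO samples in both genes. BLM fell by 0.90, 0.67, and 0.71 with compounds 4, 5, and 6 (edgeR adjusted p = 0.00875, 0.0164, and 0.0466), and the last of these calls was lost under the replicate block (edgeR adjusted p = 0.0598). RMI1, the partner of RMI2, was called with compound 5 (-0.89) and not with compound 4 or 6 (-0.56 and -0.35).

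In end resection, EXO1 was the 1 called gene of 5 with compound 4 and with compound 5 (20% each, against 5.42% and 14.2% of all tested genes), and 0 of 5 were called with compound 6 (2 at an unadjusted p under 0.05 in edgeR, 0 by DESeq2). EXO1, the exonuclease of long-range resection, measured 18.7 and 19.9 CPM in controls, against 11.3 and 9.99 for compound 4, 8.98 and 13.1 for compound 5, and 16.6 and 10.4 for compound 6. It fell by 0.86 (SE 0.23, edgeR adjusted p = 0.0338) and by 0.80 (SE 0.23, edgeR adjusted p = 0.0248) with compounds 4 and 5. Both calls were lost without DMSO replicate 1 and without DMSO replicate 2. The compound 4 call was also lost without compound 4 replicate 2, and the compound 5 call without compound 5 replicate 1. Over the fits that left out a library, EXO1 ran from -0.95 to -0.76 with compound 4 and from -1.10 to -0.53 with compound 5.

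RBBP8, which starts resection together with MRE11, measured 35.8 and 35.6 CPM in the DMSO replicates, 31.04 and 30.66 under compound 4, 33.6 and 31.5 under compound 5, and 37.5 and 37.2 under compound 6. MRE11, the nuclease of the MRN complex, measured 46.8 and 52.4 CPM in controls, against 44.0 and 35.9 for compound 4, 36.0 and 39.8 for compound 5, and 43.3 and 35.3 for compound 6. Neither gene was called, with edgeR adjusted p between 0.066 and 0.797. The other MRN genes were not called with any compound. RAD50 gave log2 fold changes of -0.02, -0.07, and -0.00, with 78.6% of its 31-mers shared with an overlapping transcript, and NBN gave -0.15, 0.04, and 0.06. The 95% intervals of RAD50 reached no lower than -0.33 on the log2 scale.

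In the Fanconi core complex and its E2 enzyme, 3 of 9 genes fell with compound 4 and 1 with compound 5, with medians of -0.28, -0.33, and -0.31. The compound 5 share of 11.1% was below the 14.2% of all tested genes, and the compound 4 share of 33.3% stood against 5.42%. With compound 6, edgeR called 0, with 3 at an unadjusted p under 0.05, 2 called without the filter, and 0 called by DESeq2. UBE2T (ENSG00000077152, chromosome 1, 202331657 to 202341980, minus strand), the ubiquitin-conjugating enzyme of the pathway, measured 23.2 and 21.0 CPM in the DMSO replicates, 13.4 and 14.0 under compound 4, 13.4 and 11.6 under compound 5, and 16.0 and 13.6 under compound 6. All treated samples lay below DMSO. UBE2T fell by 0.68 with compound 4 (SE 0.15, edgeR adjusted p = 0.0131) and by 0.82 with compound 5 (SE 0.15, edgeR adjusted p = 0.00273), and just missed the cutoff with compound 6 (-0.58, SE 0.15, edgeR adjusted p = 0.0502).

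FANCA, a core subunit and the most abundant of the 42 genes in DMSO by CPM, measured 97.7 and 105 CPM in controls, against 78.2 and 78.1 for compound 4, 90.8 and 92.4 for compound 5, and 81.3 and 78.1 for compound 6. It fell by 0.37 with compound 4 (SE 0.10, edgeR adjusted p = 0.0328), which was called in only 2 of the 8 fits that left out a library. FANCM, the translocase that anchors the core complex on DNA, measured 9.26 and 12.5 CPM in the DMSO replicates, 6.84 and 4.99 under compound 4, 8.89 and 9.42 under compound 5, and 8.55 and 5.68 under compound 6. It fell by 0.89 with compound 4 (edgeR adjusted p = 0.0387, or 0.0518 in the blocked fit), while its compound 5 level overlapped DMSO (-0.25). The other 6 core genes were not called with any compound. Among these FANCE and FANCF stayed between -0.26 and 0.09, and FANCB, at 1.15 CPM per kb in DMSO, had the widest errors (SE 0.35 to 0.36).

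FANCD2 and FANCI form the complex that receives ubiquitin, and both fell with compound 4. FANCD2 (ENSG00000144554, chromosome 3, 10026414 to 10101930, plus strand) measured 39.7 and 47.9 CPM in controls, against 23.9 and 24.1 for compound 4, 27.0 and 27.6 for compound 5, and 33.0 and 26.5 for compound 6. It fell by 0.87, 0.68, and 0.56 with compounds 4, 5, and 6 (SE 0.14 each, edgeR adjusted p = 0.00369, 0.00563, and 0.0497), the last call being lost under the replicate block (edgeR adjusted p = 0.068). FANCI measured 72.1 and 76.8 CPM in the DMSO replicates, 45.3 and 40.9 under compound 4, 55.2 and 61 under compound 5, and 65.5 and 47.8 under compound 6. Its lowest samples were thus those of compound 4, with which it fell by 0.79 (SE 0.15, edgeR adjusted p = 0.00726), whereas compounds 5 and 6 gave -0.36 and -0.40 (edgeR adjusted p = 0.0881 and 0.154).

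RFWD3, a ubiquitin ligase that acts at stalled forks, was the most abundant of the 42 genes per length, at 15.0 CPM per kb of exon in DMSO. It measured 95.2 and 99.1 CPM in controls, against 75.8 and 65.1 for compound 4, 75.2 and 75.6 for compound 5, and 79.2 and 59.5 for compound 6. Its groups did not overlap with DMSO, yet edgeR called it with no compound (-0.47, -0.37, and -0.49, edgeR adjusted p = 0.0532, 0.0705, and 0.0731). DESeq2 called it lower with compounds 4 and 6 (adjusted p = 0.0298 and 0.0379) and not with compound 5 (0.0973). Under the replicate block the compound 4 value was 0.0483. The nuclease FAN1 and the nuclease scaffold SLX4 were not called by edgeR, at log2 fold changes between -0.60 and -0.04. Over the 5 genes downstream of the core complex, 2, 1, and 1 were called lower by edgeR and 3, 1, and 2 by DESeq2, with medians of -0.47, -0.37, and -0.40. The edgeR shares were 40%, 20%, and 20%, against 5.42%, 14.2%, and 1.6% of all tested genes, so that the compound 5 share was near the background. Without the filter the counts were 3, 2, and 2, and under the replicate block 3, 1, and 0.

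Of the 7 ATM/ATR checkpoint genes, 1 fell with compound 4, 4 with compound 5, and 2 with compound 6, with medians of -0.48, -0.42, and -0.30. These were 14.3%, 57.1%, and 28.6%, against 5.42%, 14.2%, and 1.6% of all tested genes, and the compound 4 count was 3 without the filter, with CHEK2 and CLSPN added. CHEK1 (ENSG00000149554, chromosome 11, 125625136 to 125676255, plus strand), the effector kinase of ATR, measured 40.1 and 40.2 CPM in the DMSO replicates, 21.2 and 22.2 under compound 4, 24.8 and 24.8 under compound 5, and 28.4 and 21.2 under compound 6. The replicates lay close together except with compound 6. CHEK1 fell by 0.89 (SE 0.14, edgeR adjusted p = 0.00357), by 0.69 (SE 0.14, edgeR adjusted p = 0.00559), and by 0.70 (SE 0.14, edgeR adjusted p = 0.0254).

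CLSPN, the adaptor that brings CHEK1 to ATR, measured 38.1 and 43.2 CPM in controls, against 29.2 and 25.5 for compound 4, 22.3 and 22.0 for compound 5, and 29.2 and 18.5 for compound 6. It fell by 0.88 with compound 5 (edgeR adjusted p = 0.00657) and by 0.78 with compound 6 (edgeR adjusted p = 0.0442), while compound 4 gave -0.58 (edgeR adjusted p = 0.069). CHEK2, the effector kinase of ATM, measured 27.4 and 32.1 CPM in the DMSO replicates, 20.01 and 22.39 under compound 4, 17.1 and 20.3 under compound 5, and 23.7 and 18.9 under compound 6. It fell by 0.67 with compound 5 (edgeR adjusted p = 0.0107), with 14.6% of its 31-mers occurring in other genes. TIMELESS, which protects replication forks, was also called with compound 5 (-0.42, edgeR adjusted p = 0.0231).

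The kinases upstream of these effectors were not called. ATM, described because its values stood out once seen, measured 60.9 and 83.6 CPM in controls, against 84.6 and 60.5 for compound 4, 103 and 88.6 for compound 5, and 82.8 and 96.4 for compound 6. It was the 1 gene of the 42 with a fitted rise of over 0.4, at 0.41 with compound 5 (SE 0.18, edgeR adjusted p = 0.121), against 0.00 and 0.31 with compounds 4 and 6, and its DMSO replicates lay far apart. It was called higher with compound 5 without the filter on low counts, when only the groups compared were fitted, and without compound 4 replicate 2. ATR gave -0.22, -0.23, and 0.05, and ATRIP, its partner, -0.48, -0.42, and -0.30 (edgeR adjusted p = 0.0865, 0.0791, and 0.339), with 26.6% of its 31-mers shared with TREX1.

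The compounds were also compared with each other, at the IC50 of each and not at matched molar doses. Between compounds 5 and 4, 1 of the 42 genes was called lower (background 7.04%) and 0 higher (6.91%), with 5 lower and 3 higher at an unadjusted p under 0.05 and with 0 lower and 1 higher in DESeq2. Of all 13404 tested genes, 2170 were lower and 2115 higher at the unadjusted cutoff. The called gene was FANCL (chosen for naming after its values were seen), the ubiquitin ligase subunit of the core complex, which measured 16.9 and 15.9 CPM in the DMSO replicates, 15.6 and 20.8 under compound 4, 11.6 and 12.7 under compound 5, and 16.89 and 18.03 under compound 6. Its log2 fold change of compound 5 against compound 4 was -0.58 (95% interval -0.94 to -0.22, edgeR adjusted p = 0.0418), and was called in only 1 of the 8 fits that left out a library, with an adjusted p of up to 0.263. FANCI, which DESeq2 called, was higher with compound 5 than with compound 4 by 0.43 (95% interval 0.11 to 0.76, edgeR adjusted p = 0.0733).

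Between compounds 5 and 6, 1 gene was called lower (background 5.16%) and 0 higher (4.76%), with 9 lower and 0 higher at an unadjusted p under 0.05 and 1 lower and 0 higher in DESeq2. Of all 13404 tested genes, 1944 were lower and 1742 higher at the unadjusted cutoff. The called gene was RMI2, whose log2 fold change of compound 5 against compound 6 was -0.72 (95% interval -1.16 to -0.28, edgeR adjusted p = 0.0479). The call was lost under the replicate block (edgeR adjusted p = 0.0648) and held in 3 of the 8 fits that left out a library, with the highest adjusted p (0.301) without compound 6 replicate 1. Of all 13404 tested genes, 7038 had a lower fitted level with compound 5 than with compound 6. Among the 42 genes this held for 33 (median -0.20 ± 0.29, SD from replicates). The median was -0.05 without compound 6 replicate 1 and -0.09 without compound 5 replicate 1.

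Compounds 4 and 6, which differ in carrying tert-butyl or cyclohexyl groups, differed in 0 of the 42 genes by edgeR and by DESeq2, with 3 lower and 0 higher at an unadjusted p under 0.05. Over all genes 0.0224% were called in each direction by edgeR, and 612 of 13404 were lower and 703 higher at the unadjusted cutoff. With compound 4, 6852 of all 13404 tested genes had a lower fitted level than with compound 6. Among the 42 genes this held for 33 (median -0.18 ± 0.28, SD from replicates), and their median was -0.016 without compound 6 replicate 1. This does not show that they act alike, since the median half-width of the 95% intervals was 0.37 on the log2 scale, and the intervals of the 42 differences ran from -1.34 (FANCB) to 0.63 (CLSPN). The differences closest to the cutoff were those of FANCI (-0.39, 95% interval -0.72 to -0.06), RBBP8 (-0.28, 95% interval -0.52 to -0.04), and BRCA2 (-0.48, 95% interval -0.90 to -0.06), with edgeR adjusted p between 0.457 and 0.467.

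Beyond these genes, 76 others of the same pathways were listed, of which 75 passed the filter. They were called lower in 12, 19, and 3 cases with compounds 4, 5, and 6 and higher in 1, 3, and 0, with medians of -0.20, -0.19, and -0.15. The shares called lower were 16%, 25.3%, and 4%, against 5.42%, 14.2%, and 1.6% of all genes, and those called higher 1.33%, 4%, and 0%, against 6.5%, 13.9%, and 2.8%. Without the filter 21, 20, and 8 were called lower and 2, 5, and 1 higher. With compound 6, 4 had an unadjusted p under 0.05 in the upward direction and DESeq2 called 0 higher. The RPA and strand exchange genes had the lowest medians of their groups (-0.45, -0.53, and -0.26), with 3, 8, and 1 of 16 called lower. By the smallest p, the leading genes were CDC25C, RPA3, and USP1. CDC25C, the phosphatase that activates CDK1 at the entry to mitosis, fell with all 3 compounds (log2 fold changes -1.13, -0.92, and -0.77, edgeR adjusted p = 0.00184, 0.00212, and 0.0254). RPA3, a subunit of the protein that coats single-stranded DNA, fell by 1.03 with compound 5 (edgeR adjusted p = 0.00107), and USP1, which removes ubiquitin from FANCD2, fell by 0.57 with compound 4 (edgeR adjusted p = 0.00462).

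Other repair routes had medians closer to 0 than the 42 genes, and their counts stand against the 5.42%, 14.2%, and 1.6% of all genes called lower and the 6.5%, 13.9%, and 2.8% called higher. Non-homologous end joining, which rejoins ends directly, had 0, 1, and 0 of 10 genes called lower with compounds 4, 5, and 6 (3, 1, and 1 at an unadjusted p under 0.05, and 1, 0, and 0 by DESeq2), with medians of -0.03, -0.09, and -0.05. Base excision repair had 1, 4, and 0 of 18 called lower and 1, 0, and 0 called higher, led by UNG, the uracil glycosylase (-0.95 with compound 5, edgeR adjusted p = 0.00206). Nucleotide excision repair had 1, 5, and 0 of 17 lower and 1, 2, and 0 higher, led by DDB2, a damage sensor (-1.10 with compound 5, edgeR adjusted p = 8.88e-04). With compound 5 the 2 higher were 11.8% of that list, below the share of all genes. Mismatch repair had 2, 3, and 0 of 7 lower and 0 higher, and its compound 5 share of 42.9% equalled that of the 42 genes. For compound 6, where edgeR called 0 in these 3 routes, 1, 2, and 2 genes were lower and 0, 2, and 0 higher at an unadjusted p under 0.05, and DESeq2 called 1, 0, and 1 lower and 0, 1, and 0 higher.

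Markers of cycling cells moved with the 42 genes. Of 20 S phase markers, 14, 15, and 8 were called lower and 0 higher, with medians of -0.61, -0.60, and -0.58, and the 8 with compound 6 became 4 under the replicate block, 14 in DESeq2, and 16 without the filter. Their summed level was 3332 CPM in both controls, 2105 and 2194 under compound 4, 1973 and 2170 under compound 5, and 2573 and 1895 under compound 6. Of 20 G2 and M phase markers, 20, 16, and 16 were called lower and 0 higher, with medians of -1.08, -0.70, and -0.68. These summed to 2596 and 2906 CPM in controls, 1271 and 1265 under compound 4, 1697 and 1795 under compound 5, and 1916 and 1500 under compound 6. None of these 40 markers was at 0 in any sample, and none is among the 42 genes. As with the 42 genes, compound 6 replicate 1 lay between DMSO and compound 6 replicate 2. Examples are UHRF1 (-0.81, -1.13, and -0.74), which maintains DNA methylation in S phase, and TOP2A (-1.47, -0.72, and -0.79), the topoisomerase that untangles chromosomes. The part of the cell cycle markers in the changes of the 42 genes was not tested.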

How the data were processed

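RNA of 8 samples was sequenced. According to the study's methods the authors quantified reads with Salmon 1.5.0 on the GENCODE transcriptome and summed transcripts to genes with tximeta, and the deposited values are estimated counts per gene, given as whole numbers without scaling. Read ambiguity between genes is thus settled by Salmon. The genome build per the labels is GRCh38. Gene names matched 60089 of 60230 identifiers.

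The 42 genes, the gene lists, and the named genes (in each arm up to 3 with the smallest p against DMSO, plus RFWD3 and any called higher, and up to 3 of each other list) were chosen with earlier results of these data known. The model was fitted with edgeR 4.0.16 (R 4.3.3) after filterByExpr and TMM (factors 0.958 to 1.04), as a quasi-likelihood model of the 4 groups over all 8 samples, adjusted by Benjamini-Hochberg with a cutoff of 0.05. Each standard error divides the log2 fold change by the root of F, and 95% intervals use the same test, covering the spread between samples. The script was tested on simulated data.

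Alternatives were DESeq2 1.42.0, RLE, upper-quartile and library-size scaling, a filter keeping any gene with a count, a filter of 10 counts per sample, a replicate (day) block, only the groups compared, and leaving out each sample. Same-numbered replicates' deviations correlated at -0.08 to 0.16 across genes between groups. The pairing comes from the day in the labels, and blocked values are given where they change a call. Replicates differed by more than counting noise (chi-square per degree of freedom from 5.51 for DMSO to 17.2 for compound 4). Coordinates and shared 31-mers come from GENCODE 29, promoters from RefSeq (GRCh38.p14). FANCI, NBN, RAD54B, and RMI2 have no promoter entry.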

Additional observations from a re-analysis of the deposited data

How the results depend on the processing

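Counts of the 42 genes called lower against DMSO kept within 1.5 times of 16, 18, and 6 for compounds 4, 5, and 6, except in these cases. With library sizes alone or upper-quartile scaling the compound 5 count was 28, which moved the median of all genes to -0.14 and -0.12 and, with library sizes alone, the median of the 42 genes to -0.54. Without the filter the compound 6 count was 14, and 1 gene (ATM) was called higher with compound 5, as with only the groups compared. Leaving out 1 library gave 1 to 21 lower with compound 4, 9 to 24 with compound 5 (0 to 1 higher), and 0 to 12 with compound 6. The compound 5 median then lay between -0.54 and -0.41, and that for compound 6 between -0.57 and -0.19.

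Between compounds 5 and 4, the counts were 2 lower and 3 higher without the filter, 0 lower with only the groups compared, and 0 lower and 1 higher in DESeq2. Leaving out 1 library gave 0 to 1 lower and 0 to 1 higher. The median of -0.07 was -0.14 with library sizes alone and with upper-quartile scaling, and lay between -0.11 and 0.066 with 1 library left out, being reversed without compound 4 replicate 1 (0.066). Between compounds 5 and 6, the count of 1 lower became 0 with RLE and with the replicate block, 2 with library sizes alone and without the filter, 3 with upper-quartile scaling, and 0 to 2 with 1 library left out, where the median lay between -0.29 and -0.05. FANCM with compound 5, not called, turned from -0.25 to 0.0098 without DMSO replicate 2 and was -0.45 without DMSO replicate 1. The replicate block changed no other call of the 42 genes than those given for FANCM, RFWD3, BRCA2, RAD54L, RAD54B, BLM, FANCD2, and RMI2. Apart from the construction of each alternative, the cause of these shifts was not tested. With 2 samples per group, the intervals of the 42 differences had median half-widths of 0.36 to 0.37 on the log2 scale.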
